A study of Mus musculus with 13 samples.

Results

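The genes described are Fos, Fosb, Fosl1, Fosl2, Jun, Junb, Jund, Egr1, Ier2 and Myc, chosen by symbol as a set of AP-1 subunits and other early-response transcription factors. All 10 had values and all 10 passed the low-count filter, out of 13142 genes tested and 16382 genes with values. C2C12 is an established line of wild-type mouse myoblasts that fuse into myotubes in low-serum medium. The 12 poly(A)-enriched RNA-seq libraries fell into 2 groups. CON (n = 6) received medium with the vehicle DMSO, and PEA (n = 6) received medium with 10 μM palmitoylethanolamide, a fatty acid amide, both for 24 h from day 8 of differentiation. Each group of 6 came from duplicate wells in 3 repeats of the experiment with a single cell line, with no label tying a library to its repeat. The libraries were treated as separate samples, so standard errors, intervals and p-values measure the spread between these libraries, part of which is between wells of the same repeat. The question for these genes was whether their mRNA differed after 24 h of PEA, a single late time point that holds no record of any earlier transient change.

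Early-response genes are switched on by growth factors, stress or mechanical load without the need for new protein, through MAPK signalling, SRF and CREB at their promoters. Their mRNAs are short-lived. Jun and Fos proteins pair through leucine zippers to form AP-1, which binds DNA as Jun dimers or Jun-Fos heterodimers. Fos proteins cannot form stable dimers with each other. Egr1 is a zinc-finger factor, Myc is a basic helix-loop-helix factor that drives ribosome production and growth, and Ier2 is an early-response nuclear protein. In muscle these genes are best known from myoblast proliferation, where Jun and Myc oppose differentiation, and from the response to exercise, while Junb is also known for maintaining muscle mass.

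The 12 libraries held 12354845 to 50397444 estimated counts in genes (median 18420606), and CON 1 exceeded the next deepest by 2.25 times. CON 2 lay among the PEA libraries on the first principal component, and without it the count of genes called rose from 1452 to 2203, with Junb and Ier2 called in both.

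Junb and Ier2 were the members that rose in PEA. Junb was 1.33-fold higher and Ier2 1.18-fold higher, and no member fell. The other 8 members did not pass the test, including Jun, Fos, Egr1 and Myc. Genes called in either direction made up 11.0% of all genes tested, and 2 of the 10 members (20%) were called. Among all genes 6.31% were called higher and 4.74% were called lower in PEA. The split was 829 higher against 623 lower, and it was 851 against 834 with the GC trend of each library removed and 987 against 928 with DESeq2. With 10 members, a count of 2 called is close to that background, and the statements on Junb and Ier2 are statements on single genes. All 10 fold changes were above 0, compared with 51.3% of all genes tested, with a median log2 fold change of 0.12 for the members and 0.01 for all genes. The 10 values come from the same libraries, so their signs are not independent of each other.

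The promoter letters of 3 members are shown first, chosen after the values were seen. They are Junb, which was called, and Jun and Fos, which did not pass the test. Each line gives the 250 bases before the RefSeq gene start, 5′ to 3′ on the gene's strand, from the RefSeq table on GRCm38.p6, and the coordinates are those of its exact match on GRCm39. Capitals mark the letters TATAAA of a TATA box, the CCAAT box by its own letters, or the letters GGGCGG of a GC box. Both strands were searched.
Junb, chr8:85705378-85705627, minus strand: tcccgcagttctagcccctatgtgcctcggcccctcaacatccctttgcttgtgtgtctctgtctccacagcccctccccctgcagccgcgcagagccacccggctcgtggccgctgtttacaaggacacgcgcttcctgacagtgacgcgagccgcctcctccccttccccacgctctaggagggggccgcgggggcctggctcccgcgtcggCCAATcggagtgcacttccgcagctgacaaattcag
Jun, chr4:94940460-94940709, minus strand: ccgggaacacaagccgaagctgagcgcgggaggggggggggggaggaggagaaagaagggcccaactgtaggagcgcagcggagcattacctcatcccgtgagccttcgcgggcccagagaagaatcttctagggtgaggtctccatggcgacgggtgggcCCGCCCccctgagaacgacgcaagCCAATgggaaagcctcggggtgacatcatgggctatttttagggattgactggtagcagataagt
Fos, chr12:85520414-85520663, plus strand: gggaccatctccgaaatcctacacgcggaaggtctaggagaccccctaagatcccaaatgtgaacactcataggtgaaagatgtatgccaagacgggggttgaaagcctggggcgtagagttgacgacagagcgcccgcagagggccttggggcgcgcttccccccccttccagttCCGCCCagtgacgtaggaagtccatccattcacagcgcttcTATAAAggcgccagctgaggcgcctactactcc

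The Junb window held a CCAAT box that starts 36 bases before the gene start and neither of the other marked boxes. The Jun window held a CCAAT box starting 65 bases before the start and a GC box starting 89 bases before it. The Fos window held a TATA box starting 33 bases before the start and a GC box starting 74 bases before it. Across all 32851 promoters of the same length, 33.9% held the CCAAT letters, 32.7% the GC box and 12.4% the TATA box. The same windows were searched for the cAMP response element (TGACGTCA, in 1.55% of all promoters), the AP-1 site (TGANTCA, 6.75%), the E-box (CACGTG, 6.02%), the EGR site (GCGNGGGCG, 4.70%), the STAT site (TTCNNNGAA, 7.02%) and the CArG box (1.47%). None of these was matched in the 3 windows printed. The search took exact consensus letters within 250 bases, so variant sites and sites farther upstream were not covered. The lack of a match does not show that a promoter lacks the element. The EGR site, whose last letters overlap the GC box, was matched in the windows of Fosb and Fosl2, starting 50 and 79 bases before their starts. The Fosb window also held 3 GC boxes, the Fosl2 window held 1, and the Jund window held none of the boxes or sites searched. These letter matches are descriptions of a short window. The table also matched Fosb, Fosl2 and Jund, making 6 members, and did not match Fosl1, Egr1, Ier2 and Myc.

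Levels were compared as deposited normalized counts per kilobase of exon, since counts alone favour long transcripts. Jund had the highest level, with a median of 2607 normalized counts per kilobase over the 12 libraries, followed by Junb with 2077. By mean over the 12 libraries, Jund and Junb exceeded 97.5% and 96.9% of all genes tested. Jund was above Junb in all 12 libraries, although their ranges overlapped. Jun at 1018 and Ier2 at 988 came next, with overlapping ranges. Jun was above Ier2 in 5 of 6 CON libraries, with means of 990.1 and 935 normalized counts per kilobase, and in 2 of 6 PEA libraries, with means of 1057 and 1099.

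A middle tier was formed by Fosl1 at 608, Egr1 at 512 and Myc at 506 normalized counts per kilobase, whose ranges overlapped. Egr1 was above Myc in only 5 of 12 libraries. Fosl2 followed at 307, with a range apart from that of Myc on this length. With the longest transcript as length, the mean levels of Fosl2 and Myc were 463 and 584, and their ranges overlapped. Fos at 54.9 and Fosb at 6.03 were the lowest, and by mean level Fosb exceeded only 6.60% of all genes tested. The mean level of Fosb was 6.16 by all exonic bases and 10.2 by the longest transcript. As reference levels, Gapdh, a glycolytic enzyme, had a mean of 1782 ± 295 normalized counts per kilobase in CON and 1469 ± 103 in PEA (SD, n = 6 each), and beta-actin (Actb) had 12404 ± 860 and 11119 ± 534. Neither served as a standard here, since Gapdh was itself lower in PEA past the threshold, at -0.28 ± 0.09 on the log2 scale (SE; adjusted p = 0.0480, edgeR).

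**Figure D1:**
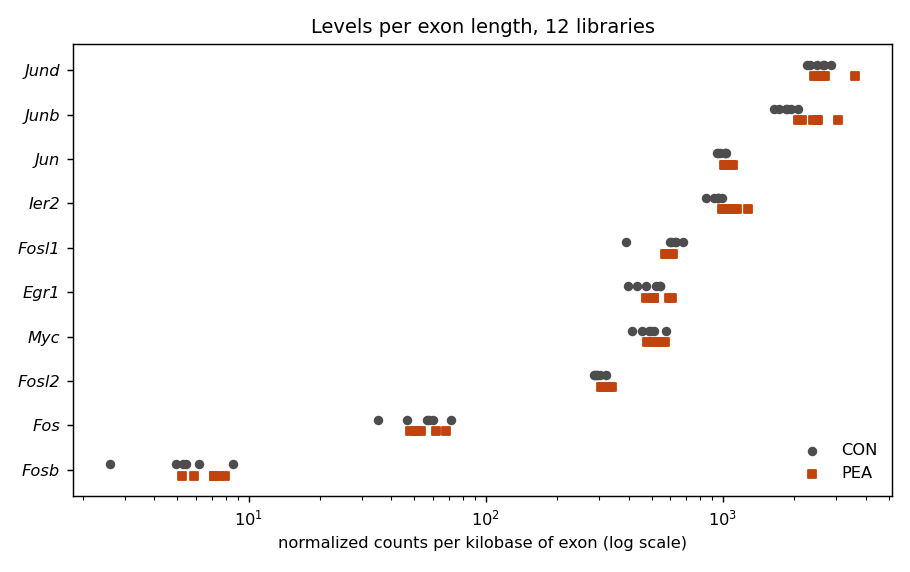
Normalized counts per kilobase of exon on a log axis for each of the 10 genes, ordered by median, with a circle for each CON library and a square for each PEA library. Jund and Junb lie at the top, Fos at a median of 54.9 and Fosb at a median of 6.03.

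Within AP-1, mRNA of the Jun family made up 85.6% of the summed per-kilobase level of the 7 subunits. Jund contributed 38.9%, Junb 31.5% and Jun 15.2%. Among the Fos family, Fosl1 contributed 8.85%, Fosl2 4.60%, Fos 0.818% and Fosb 0.0906%. The Junb share was 29.2% ± 1.15 in CON and 33.7% ± 1.51 in PEA, and the Jund share was 40.1% ± 1.75 and 37.8% ± 1.72 (SD, n = 6 each). The order of Jund and Junb depended on the transcript length used. With the longest transcript in place of all exonic bases, Junb contributed 36.6% and Jund 34.4%. These are mRNA shares, and the amount of each protein or dimer was not measured.

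Junb encodes a Jun-family subunit that often restrains the activity of Jun. Its normalized count in CON had a lowest value of 3898, a median of 4423 and a highest value of 4950. In PEA the lowest was 4942, the median 5820 and the highest 7293. The groups met at a single point, where PEA 3 lay just under CON 4, and the other 5 PEA libraries were above every CON library. The mean was 4404 ± 370 in CON and 5825 ± 837 in PEA (SD, n = 6 each). The log2 fold change was 0.41 ± 0.08 (SE; 95% confidence interval 0.23 to 0.58; adjusted p = 0.0063, edgeR's quasi-likelihood test with Benjamini-Hochberg adjustment over all genes tested). Junb ranked 259th of 13142 genes by p. It was called under all 12 fits that left out a library, with log2 fold changes between 0.33 and 0.45.

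Jun, the founding AP-1 subunit, had normalized counts of 3004 to 3290 in CON (median 3175) and of 3211 to 3510 in PEA (median 3413). Of the PEA libraries, 4 lay above the whole CON range and 2 lay within it. Its coefficient of variation was 3.76% in CON, the smallest of the 10 genes there, and 3.54% in PEA, where only that of Fosl1 was smaller (3.11%). The fit gave a log2 fold change of 0.10 ± 0.04 (SE; 95% interval 0.01 to 0.18), and the difference did not pass the threshold (adjusted p = 0.135, edgeR). The upper bound lay below the lower bound for Junb (0.23), with the libraries taken as separate samples.

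Jund, the subunit usually present in resting cells, had normalized counts of 3772 to 4770 in CON (median 4266) and of 4051 to 6017 in PEA (median 4353). The highest value belonged to PEA 2, and the other 5 PEA libraries, up to 4476, lay inside the CON range. Its log2 fold change was 0.12 ± 0.09 (SE; 95% interval -0.07 to 0.30; adjusted p = 0.414, edgeR). Without PEA 2 it was 0.02 (adjusted p = 0.864), the lowest of the 12 fits that left out a library.

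**Figure D2:**
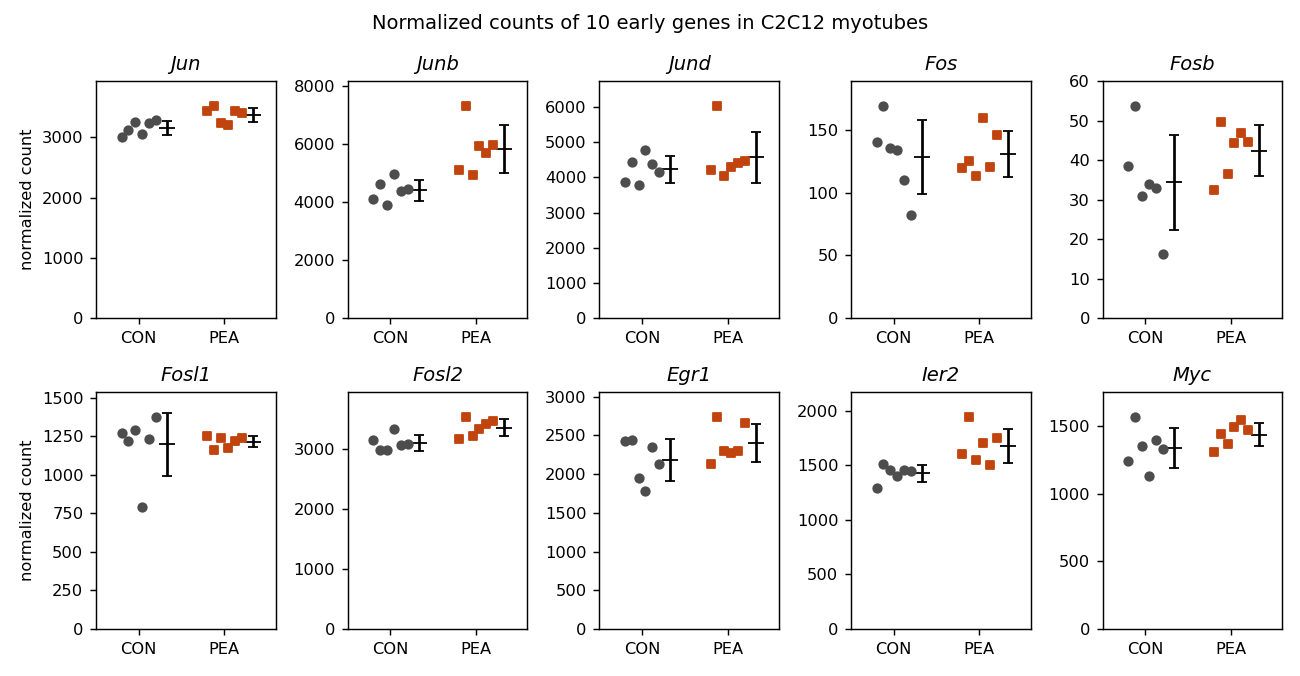
Deposited normalized counts of the 10 genes, one panel per gene with an axis from 0, with a point for each library in replicate order (circles CON, squares PEA) and a bar for the mean ± SD of 6 libraries. Junb and Ier2 are shifted upward in PEA, the Fosl1 point at 791 is CON 4 and the Jund point at 6017 is PEA 2.

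Junb and Jund varied together from library to library within each treatment. After the mean of each treatment was removed, their log2 CPM values had Pearson r = 0.93 and Spearman rho = 0.91 over the 12 libraries (permutation test within treatments, p = 5e-05 and p = 6e-05, adjusted p = 0.00225 and 0.0027 over 45 member pairs). Without PEA 2 and PEA 3, the libraries farthest from the median of Junb, r was 0.87. Within CON r was 0.96 and within PEA 0.92. It was the only one of the 45 pairs past the threshold over all 12 libraries, and the median r of the pairs was 0.23. Without CON 2, and likewise without CON 6, 2 pairs passed. The pair with the next smallest Pearson p was Fosl2 and Junb, with r = 0.77 and an adjusted p of 0.110 by the permutation test. Junb and Jund were also the members with the highest transcript GC content, and the part of GC content in their correlation was not tested.

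Against this shared variation, the ratio of Junb to Jund separated the treatments. The ratio of their normalized counts had a lowest value of 1.00, a median of 1.04 and a highest value of 1.07 in CON. In PEA the lowest was 1.21, the median 1.26 and the highest 1.38. The groups did not overlap, and the means were 1.04 ± 0.03 and 1.28 ± 0.07 (SD, n = 6 each). PEA 2, which was high for both genes, had the lowest ratio of the PEA libraries, and PEA 4 had the highest. The ratio was singled out after the values had been seen and is given without a test.

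**Figure D3:**
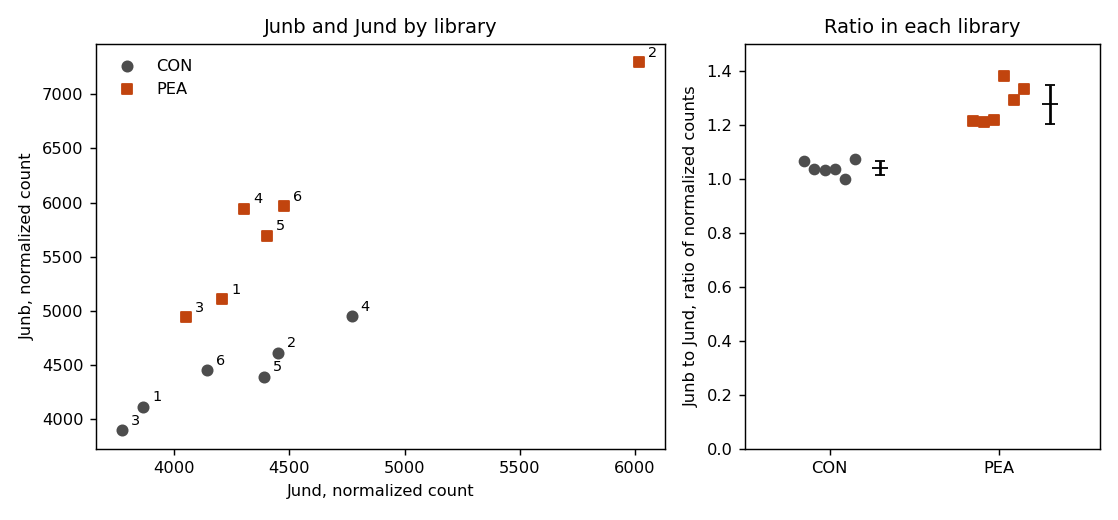
Left, normalized count of Junb against that of Jund, with a numbered point for each library (circles CON, squares PEA). Right, the ratio of Junb to Jund in each library on an axis from 0, with a bar for the mean ± SD of 6 libraries, 1.00 to 1.07 in CON and 1.21 to 1.38 in PEA.

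The ratio of Junb to Jun, by contrast, overlapped, at 1.20 to 1.62 in CON and 1.49 to 2.08 in PEA. The ratio of Ier2 to Junb also overlapped, at 0.282 to 0.374 in CON and 0.264 to 0.314 in PEA. The groups of no single member were free of overlap in normalized counts, whereas 4.34% of all genes tested had groups that did not overlap. Junb and Ier2 each missed such a separation through a single pair of libraries.

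The Fos family gave no call. Fos, the classic partner of Jun, had normalized counts of 82.4 to 168 in CON (median 135) and of 113 to 159 in PEA (median 123), so the whole PEA range lay inside the CON range. Its log2 fold change was 0.02 ± 0.15 (SE; 95% interval -0.30 to 0.34; adjusted p = 0.948, edgeR). Leaving out single libraries gave values from -0.08 to 0.11, and the sign turned in 4 of the 12 fits.

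Fosb, which is strongly induced by repeated stimulation, had estimated counts of only 16.0 to 101 per library. Its normalized counts were 16.3 to 53.7 in CON (median 33.5) and 32.6 to 49.8 in PEA (median 44.5), and the groups overlapped. The log2 fold change of 0.30 ± 0.24 (SE; 95% interval -0.21 to 0.81; adjusted p = 0.456, edgeR) was the second largest of the members and the least precise. The interval holds both 0 and the estimate for Junb, and leaving out single libraries moved the value between 0.16 and 0.46. The part of counting error in its spread was not tested.

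Fosl1 (Fra-1), a subunit linked to proliferating and migrating cells, had normalized counts of 791 to 1373 in CON (median 1252) and of 1163 to 1253 in PEA (median 1229). CON 4 was low at 791, and the other 5 CON libraries lay between 1220 and 1373. The fitted log2 fold change was 0.02 ± 0.09 (SE; adjusted p = 0.906, edgeR), and without CON 4 it turned to -0.07 ± 0.05 (adjusted p = 0.354). The direction of Fosl1 was thus not determined by these libraries.

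Fosl2 (Fra-2), a subunit expressed in many differentiated tissues, had normalized counts of 2984 to 3330 in CON (median 3070) and of 3166 to 3529 in PEA (median 3378). Above every CON library lay 4 PEA libraries. The log2 fold change was 0.12 ± 0.04 (SE; 95% interval 0.03 to 0.21), and the adjusted p of 0.0850 (edgeR) missed the threshold. Without CON 4, the highest CON library, the adjusted p was 0.0478. Of the Fos family only Fosl2 had an interval that excluded 0.

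**Figure D4:**
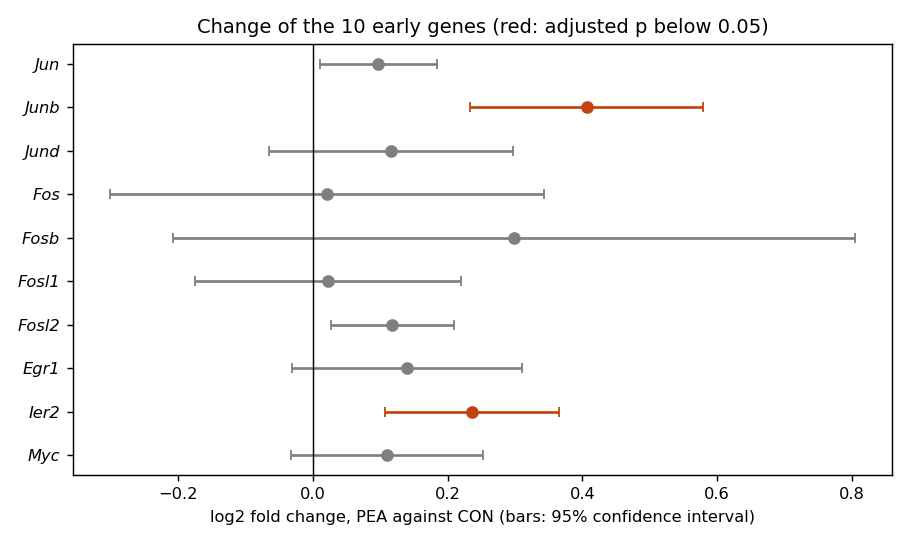
Log2 fold change of PEA against CON from the edgeR fit for each of the 10 genes, with 95% confidence intervals and a line at 0. Junb (0.41) and Ier2 (0.24), in red, had an adjusted p below 0.05, and Fosb has the widest interval, -0.21 to 0.81.

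Egr1, an early-response factor that activates growth and matrix genes, had normalized counts of 1786 to 2443 in CON (median 2243) and of 2134 to 2737 in PEA (median 2301). PEA 2 and PEA 6 lay above the CON range and the other 4 lay within it. The fit gave a log2 fold change of 0.14 ± 0.08 (SE; 95% interval -0.03 to 0.31; adjusted p = 0.280, edgeR).

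Ier2, an early-response nuclear protein with roles in proliferation and cell movement, had normalized counts in CON with a lowest value of 1288, a median of 1451 and a highest value of 1507. In PEA the lowest was 1504, the median 1653 and the highest 1939. In all, 5 PEA libraries lay above every CON library, and PEA 5 fell just under CON 2. The mean was 1425 ± 75.8 in CON and 1674 ± 159 in PEA (SD, n = 6 each), and the log2 fold change was 0.24 ± 0.06 (SE; 95% interval 0.11 to 0.36; adjusted p = 0.0213, edgeR). The call was lost without PEA 6 (0.22, adjusted p = 0.0553) and was kept in the other 11 fits that left out a library.

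Myc had normalized counts of 1129 to 1568 in CON (median 1341) and of 1308 to 1548 in PEA (median 1457), with the whole PEA range inside that of CON. Its log2 fold change was 0.11 ± 0.07 (SE; 95% interval -0.03 to 0.25; adjusted p = 0.313, edgeR). The upper bound of the interval lay below the estimate for Junb (0.41). The intervals of Myc and Junb (0.23 to 0.58) overlapped, and the difference between the 2 genes was not tested.

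Junb and Ier2 share features that the choice of genes did not use. Both lie on the minus strand of chromosome 8 in GRCm39, Ier2 at 85387960 to 85389483 and Junb at 85701113 to 85705359, with 311629 bases between them. Jund lies on the plus strand of the same chromosome at 71151599 to 71153265. Between Ier2 and Junb, 12 genes were tested, with a median log2 fold change of -0.03. The other members lie apart from each other, with Fos on chromosome 12 (85520658 to 85524047), Jun on 4 (94937271 to 94940459), Fosb on 7 (19036621 to 19043976), Fosl1 on 19 (5497575 to 5505974), Fosl2 on 5 (32292707 to 32315186), Egr1 on 18 (34992876 to 34998049) and Myc on 15 (61857227 to 61862223).

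Jun, Junb, Jund and Ier2 are each a single exon, a form held by 7.27% of all genes tested. Among 955 single-exon genes tested, 2.51% were called higher and 8.17% lower in PEA, with a median log2 fold change of -0.08. Of the single-exon members, Junb and Ier2 were called higher and Jun and Jund were not called. The part of exon number in the rise of Junb and Ier2 was not tested. The transcript GC content of the 10 members ran from 51.9% for Fos to 67.2% for Jund, all above the median of 50.2% over all genes, with Junb at 62.6% and Ier2 at 60.9%. PEA 2, the highest of the 12 libraries for Jun, Junb, Jund, Fosl2, Egr1 and Ier2, was also the library in which the top 10% of genes by GC content stood highest, at a median of 0.11 above the 12-library mean on the log2 scale. Without PEA 2, Junb had a log2 fold change of 0.33 (adjusted p = 0.00995) and Ier2 of 0.19 (adjusted p = 0.0470, both edgeR). With the GC trend of each library removed, an alternative chosen after the data were seen, Junb had a log2 fold change of 0.37 (adjusted p = 0.00212), Ier2 of 0.21 (adjusted p = 0.0156) and Jund of 0.06 (adjusted p = 0.482, all edgeR).

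Markers of dividing cells moved with the treatment. All 8 dividing-cell markers were higher in PEA past the threshold, including Top2a (log2 fold change 0.95) and Mki67 (1.03), and their summed normalized count was 2610 to 6851 in CON and 7053 to 8444 in PEA. Of 19 myotube markers, 5 were lower past the threshold, 18 had a fold change below 0 and none was called higher, with sums of 160416 to 242003 in CON and 165528 to 187301 in PEA. Myotube genes were thus abundant in every library of both groups. Of 9 myoblast and reserve-cell markers tested, 1 was called, Cdh15, which was lower (-0.25), and their sums were 32392 to 40407 in CON and 34399 to 38350 in PEA. In bulk RNA, fewer cells of a type and less RNA per cell cannot be told apart, and the part of dividing or unfused cells in the rise of Junb and Ier2 was not tested.

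Among markers of cell types not named by the labels, 1 of 8 fibroblast genes tested was called, Dcn (0.48). None was called of the 3 macrophage, 1 endothelial and 1 adipocyte genes tested. The other genes of those lists had no value or did not pass the low-count filter. The macrophage sum was 604 to 822 normalized counts in CON and 693 to 892 in PEA, the endothelial sum 8.23 to 35.6 and 26.6 to 44.9, and the adipocyte sum was at most 46.3 and 46.2. Most of the macrophage sum came from Cd14, at 483 to 774. Ptprc, the leukocyte marker, reached at most 5.06 normalized counts in any library and the fibroblast marker Thy1 at most 8.62. The summed level of the fibroblast list, which C2C12 cells also express, was 65782 to 95259 in CON and 73053 to 90317 in PEA.

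Around these 10 genes, 7 companion lists with 207 symbols were examined, of which 197 genes were tested. In all 28 of the 197 (14.2%) were called, 17 higher and 11 lower, with a median log2 fold change of -0.01. With the GC trend of each library removed the calls were 18 higher and 18 lower. The share called was close to the 11.0% of all genes. The counts of each list below stand beside 6.31% of all genes called higher and 4.74% called lower, and no list was tested as a whole. Leaving out single libraries gave 11 calls without PEA 5 and up to 50 without CON 2.

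Other early-response genes moved in both directions. Of 40 tested, 7 were called higher and 2 lower, against 6.31% and 4.74% of all genes, with a median of 0.10. Ptgs2, the inducible prostaglandin synthase, averaged 738 ± 94.2 for CON against 1011 ± 106 normalized counts for PEA (SD, n = 6 each), a rise of 0.45 on the log2 scale (adjusted p = 0.00425, edgeR). Atf3, a stress-induced bZIP factor, rose from 404 ± 156 to 675 ± 122 (0.74, adjusted p = 0.0198, edgeR), and Pim1, a survival kinase, rose by 0.41 (adjusted p = 0.0301, edgeR). The matricellular gene Ccn1 fell from 5781 ± 290 to 4848 ± 429 (-0.25, adjusted p = 0.0103, edgeR) and the EGFR feedback inhibitor Errfi1 fell from 2179 ± 259 to 1817 ± 49.4 (-0.26, adjusted p = 0.0162, edgeR). Egr4 was not analysed here.

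A further list held bZIP genes, some for partners of Jun and Fos and others for related factors. Of 21 tested, 3 were higher and none lower past the threshold, against 6.31% and 4.74% of all genes, with a median of 0.10. They were Atf3, Cebpg (0.23, adjusted p = 0.0359) and Ddit3 (CHOP, 0.33, adjusted p = 0.0454, edgeR), which all have known roles in the integrated stress response.

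Upstream of the early-response genes, 30 genes of Ras, MAPK, SRF and MEF2 signalling were tested, with none higher and 2 lower past the threshold and a median of -0.06. Those were the muscle factor Mef2a (-0.25, adjusted p = 0.0441) and Hras (-0.14, adjusted p = 0.0488), both by edgeR. Among 20 feedback inhibitors of MAPK signalling, Zfp36, which destabilises early-response mRNAs, was higher (0.33, adjusted p = 0.0426), Errfi1 was lower, and the median was 0.02. Spry1 had a value of -0.21 (adjusted p = 0.0508, edgeR).

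For Myc, 15 genes of its dimer network and regulators were tested, and 2 were called, both higher. Aurka, a mitotic kinase that also stabilises MYC proteins, rose from 378 ± 86.0 to 587 ± 38.8 normalized counts (0.64, adjusted p = 0.00339), and Mxd3, a MAX partner expressed in dividing cells, rose from 79.4 ± 30.8 to 172 ± 31.0 (1.13, adjusted p = 0.00349, edgeR). The groups did not overlap for either gene. Mxd1, a MYC antagonist, had a value of 0.36 (adjusted p = 0.0776, edgeR). The dividing-cell markers were higher in PEA as well, and their part in these 2 calls was not tested.

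The list of MYC target genes held many for ribosome assembly and translation. Of its 40 genes, all tested, none was called higher and 6 were called lower, against 6.31% and 4.74% of all genes. A fold change below 0 was found for 32 of them, with a median of -0.08, while 51.3% of all genes had a fold change above 0. The list as a whole was not tested. The called genes included Mrto4, Pes1 and Bop1 for ribosome assembly (-0.30, -0.21 and -0.16), Eif4a1 for translation initiation (-0.24) and the prohibitin Phb1 (-0.23). The adjusted p-values of the 6 ran from 0.0149 to 0.0363 (edgeR).

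Of 38 AP-1 target genes tested, 6 were called higher and 1 lower, against 6.31% and 4.74% of all genes, with a median of 0.06. Hmga1 and Hmga2, chromatin architecture proteins of undifferentiated cells, rose by 0.41 (adjusted p = 0.0068) and 0.26 (adjusted p = 0.0069) without overlap between groups (edgeR). Haem oxygenase Hmox1 rose by 0.35 (adjusted p = 0.00795), the growth factor Vegfd by 0.26 (adjusted p = 0.0170) and the myostatin antagonist Fst by 0.33 (adjusted p = 0.0267, edgeR). The gene called lower, named after its value was seen, was the metallothionein Mt1 (-0.29, adjusted p = 0.0469, edgeR). Most genes of the list have other regulators too.

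**Figure D5:**
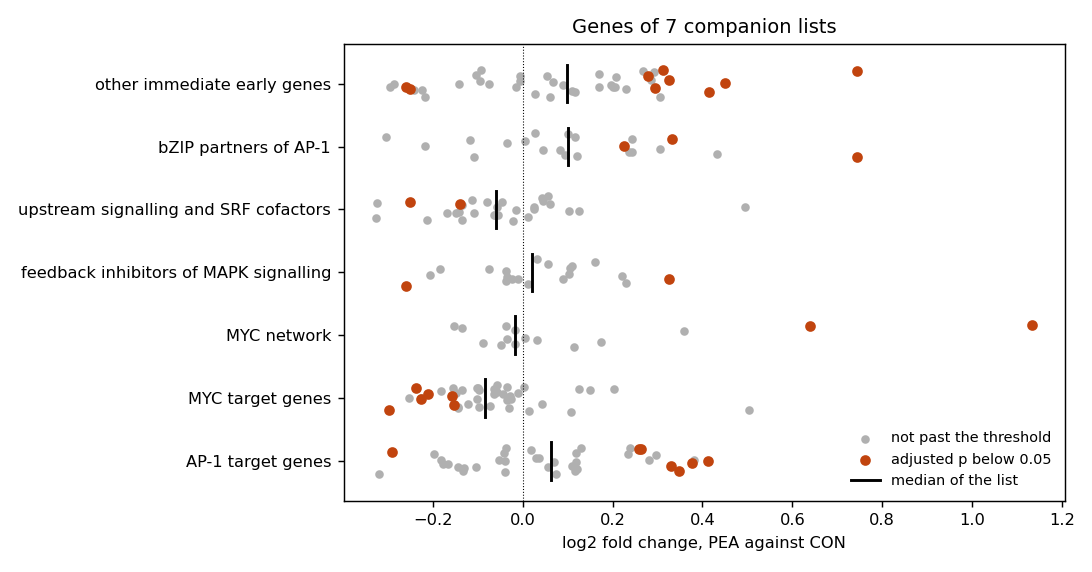
Log2 fold change of PEA against CON for each tested gene of the 7 companion lists, in red where the adjusted p was below 0.05, with a black line at the median of each list. The medians run from -0.08 for MYC target genes to 0.10 for the list labelled bZIP partners of AP-1. The red point farthest to the right is Mxd3 at 1.13.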

How the data were processed

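Reads below Phred 20 were removed by the authors and the rest aligned with STAR 4.4.1d to mm39 with Ensembl annotation and quantified in Partek Flow by expectation-maximization. The authors deposited a table of estimated counts per gene, which need not be whole, and one of normalized counts, a signal scaled per library by the authors with DESeq2 median ratios. Strand use was not stated, so reads of overlapping antisense genes could not be told apart. The row for PEA 2 was taken to cover both runs named in the labels and counted as 1 library. Estimated counts were rounded and tested with edgeR 4.0.16 (R 4.3.3) after filterByExpr and TMM scaling, with quasi-likelihood tests and Benjamini-Hochberg adjustment over 13142 genes at 0.05. Normalized counts were used for levels and ratios, divided by exonic bases of GENCODE on GRCm39 where levels of genes were compared. Log2 CPM values centred by treatment were correlated with 100000 permutations. Errors and intervals cover the spread between libraries and counting only. Scripts were tested on simulated data. Alternatives were DESeq2 1.42.0, limma 3.58.1, other filters and scalings, a replicate block, a stricter threshold and leaving out each library.

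The members and companion lists were chosen with earlier results of these data known. Named genes were the 10 members, in each companion list the 3 genes with the smallest p and further called genes up to 5, and for Fos, Jun, Egr1 and Myc the 3 genes with the highest correlation. Markers and genes named outside this rule were chosen after their values were seen. Some genes that this rule would name are not reported here.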

Additional observations from a re-analysis of the deposited data

Results flagged for a closer look

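A gap test for a single library far from the other 5 of its group was applied to 70 groups, 20 of them of the 10 early genes, and chance marks about 1 group in 20. It marked 3. Jund in PEA 2 had a normalized count of 6017, while the other 5 PEA libraries lay between 4051 and 4476. Fosl1 in CON 4 had 791, against 1220 to 1373 in the other CON libraries. The third was the early-response gene Ccn1 in CON 5, at 6344 against 5571 to 5796 in the other CON libraries.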

How the results depend on the processing

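The 10 member fold changes were recomputed under 22 alternatives each, 220 in all, and 213 kept their direction and their side of the threshold. DESeq2, limma and the other scalings and filters each called the same number of members, 2. The reversals were all in fits that left out a library: Fos at -0.02 without CON 5, -0.0792 without CON 6, -0.04 without PEA 4 and -0.01 without PEA 6 (range -0.0792 to 0.11), and Fosl1 at -0.0708 without CON 4 (range -0.0708 to 0.0655). The call of Ier2 was lost without PEA 6, and Fosl2 was called without CON 4. Leaving out single libraries gave 778 to 2203 genes, 1 to 3 members, 11 to 50 companion genes and 1 to 2 correlated member pairs (2 without CON 2 or CON 6). Genes fell below 1452 by more than 1.5 times without CON 6 (864), PEA 2 (906), PEA 4 (963), PEA 5 (794) or PEA 6 (778). Companion genes numbered 50 without CON 2, 18 without CON 5, 12 without CON 6, 17 without PEA 2, 16 without PEA 4, 11 without PEA 5 and 13 without PEA 6. At an adjusted p below 0.01 there were 405 genes, 1 member and 6 companion genes. DESeq2 called 1915 genes and 43 companion genes. Some of these fits held fewer samples or a stricter threshold, and the cause of the shifts was not tested.

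Libraries with the same replicate number correlated at -0.08 to 0.06 after group means were removed, and 0 of 12 correlated best with their own number, so the numbers were not read as pairs. With the replicate block 1570 genes, 2 members and 35 companion genes were called, and with the block and the GC trend removed together 1616, 2 and 35. Fosb had the lowest counts of the members, and the effect of depth on its error was not tested.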

Other observations

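The genes whose treatment-centred log2 CPM followed a member most closely over the 12 libraries are given as a description, chosen as the highest Pearson r among all genes tested. For Fos they were Itga1 (r = 0.92), the bZIP factor Cebpg (0.92) and Gbp4 (0.90), of which Itga1 and Gbp4 had few counts, with means of 13.4 and 33.7 per library. For Jun they were Nob1 (0.88), Mbd3 (0.88) and Smim29 (0.85). For Egr1 they were Dpf2 (0.93), Zbtb7c (0.92) and Vash1 (0.91), and for Myc Slc16a6 (0.93), Ttc12 (0.91) and Was (0.88). Vash1 and Was had means of only 18.9 and 9.92 counts per library. For Junb, listed after its values were seen, Jund came first (0.93), followed by Chmp4b (0.93) and Tmem203 (0.93), both with fold changes near 0 (0.06 and -0.0010). For Ier2, also listed afterwards, they were Spns1 (0.92), Siah2 (0.87) and the MAPK phosphatase Dusp5 (0.87), with fold changes of -0.03, -0.06 and -0.02.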
